A study of Mus musculus with 2 samples.

Results

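The 9 genes described here are the core transcription factors of the cardiac lineage: the NK2 homeobox gene Nkx2-5, the GATA zinc finger genes Gata4, Gata5 and Gata6, the T-box genes Tbx2, Tbx5 and Tbx20, and the basic helix-loop-helix genes Hand1 and Hand2. They were taken by name, after Ensembl gene identifiers had been matched to mouse symbols, and all 9 were found among the 17646 genes of the tables. Each of them passed 1 RPKM (reads per kilobase of gene length, scaled to the library's read total) in at least one library, as did 12329 genes in all. RNA of whole hearts from BALB/c mouse embryos at embryonic day 13.5 was sequenced in 2 libraries, 1 from wild-type (WT) and 1 from SRSF10-/- embryos (knockout, KO); Srsf10 belongs to the SR proteins, which regulate splicing. The labels do not say how many embryos each library pools or how the knockout allele was made. The comparison asks how transcript levels in the embryonic heart differ when Srsf10 is lost. With 1 library per genotype there are no replicates to check a difference, and no test was run. Intervals are exact 95% intervals of the read numbers and cover counting error only, and "higher" and "lower" compare these 2 libraries.

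In the early embryo Nkx2-5 marks cardiac progenitors, and its protein acts together with GATA4 and TBX5 on promoters of contractile and secreted heart genes. GATA factors bind GATA sites, T-box factors bind sites with an AGGTGT core, and HAND proteins bind DNA as dimers with E proteins. TBX5 and TBX20 work in the chamber myocardium, whereas TBX2 is a repressor that holds back the chamber program in the atrioventricular canal and outflow tract. HAND1 and HAND2 are known for roles in the left and right ventricle, and HAND2 also acts in the outflow tract and epicardium.

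Over all listed genes, the uniquely mapped reads summed to 39.6 M (WT) and 38.9 M (KO). Srsf10 had 5245 reads in WT and 212 in KO, 4.12% of the wild-type level (3.57 to 4.72). Reads of 4 Y-linked genes (Ddx3y, Eif2s3y, Kdm5d and Uty) summed to 2943 and 7, so the sex of the tissue and the genotype cannot be told apart. All 8 cardiomyocyte markers were measured, with summed levels of 17775 and 16486 RPKM, and lung and foregut markers summed to under 1 RPKM in both libraries. Liver markers summed to 274 reads in WT and 40 in KO, where Alb had 0 reads, while Ttr, below 1 RPKM, had more reads in KO (22 and 34). Of the 4 skeletal muscle markers Tnni2 had 24.4 and 96.8 RPKM, while Myod1, Myog and Pax7, all below 1 RPKM, had fewer reads in KO (18 and 2, 41 and 18, and 12 and 0). Of the 8 cushion mesenchyme and fibroblast markers 7 were below 0, with summed levels of 673 and 487 RPKM; all 3 measured leukocyte markers were above 0 (20.4 and 28.3 RPKM summed over the list), and 2 of 3 measured erythroid markers below, while the 2 under 1 RPKM, Klf1 and Gata1, were above (26.1 and 20.3 RPKM summed over the 5). Of all 12329 genes, 51.8% had a log2 ratio below 0. The part of these other tissues and cells in the results below was not tested. In such bulk tissue, fewer cells of a type and less RNA per cell cannot be told apart.

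The 9 factors spanned a wide range of levels, and their order differed between the libraries in 3 places. In the wild-type heart the order by RPKM was Nkx2-5, Gata4, Tbx20, Gata6, Hand2, Tbx5, Hand1, Gata5 and Tbx2. In the knockout heart Tbx20 stood above Gata4, Hand2 above Gata6, and Gata5 above Hand1. Among neighbours in these orders, only Gata6 and Hand2 in WT had overlapping counting intervals, at 61.2 RPKM (59.8 to 62.6) and 59.9 RPKM (58.3 to 61.5). Nkx2-5 ranked 513th of 12329 genes in WT and 543rd in KO, whereas Tbx2 ranked 8889th and 8088th. Summed over all 9 genes the level was 447 RPKM in WT and 430.0 RPKM in KO, and their summed reads were 1.03-fold lower in KO (1.02 to 1.05).

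**Figure D1:**
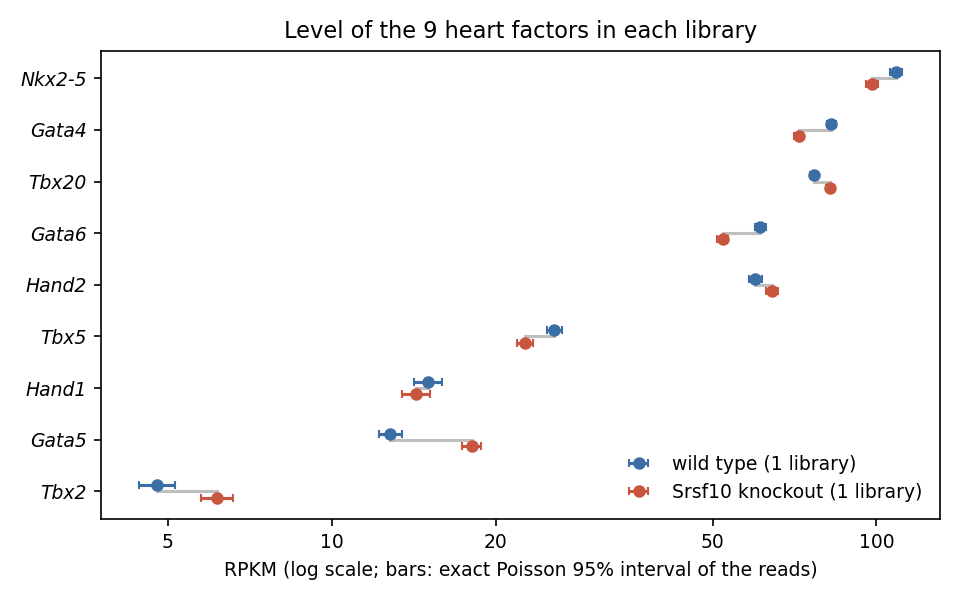
RPKM of each of the 9 heart factors on a log axis, with 1 point per library (blue, wild type; red, knockout) and bars for the exact Poisson 95% interval of the reads. Levels run from 4.78 RPKM (Tbx2, wild type) to 109 RPKM (Nkx2-5, wild type), and the points of Gata5 and Tbx2 lie farthest apart.

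Between the libraries, the differences were small. By the ratio of RPKM + 1, 5 of the 9 factors were lower and 4 higher in KO, and 51.8% of all 12329 genes were lower. None of the 9 differed at least 1.5-fold, as 2.95% of all genes did, and none at least 2-fold, as 0.543% did. Only Gata5 passed an absolute log2 ratio of 0.32, as 13.9% of all genes did, with Tbx2 just under it at 0.31. The median log2 ratio of the 9 genes was -0.07 beside -0.01 for all genes, while the mean over the 9 was 0.02 and so of the other sign. The middle 50% of all genes lay between -0.14 and 0.13. Taken singly, only Tbx20, Hand1 and Hand2 lay within that range. Nkx2-5 lay just below its lower end, Gata4, Gata6 and Tbx5 farther below, and Gata5 and Tbx2 above it. The median near 0 thus holds ratios on both sides of 0. By read ratio, the counting interval lay below 1 for 4 factors (Nkx2-5, Gata4, Gata6 and Tbx5), above 1 for 4 (Gata5, Tbx2, Tbx20 and Hand2), and held 1 for Hand1.

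**Figure D2:**
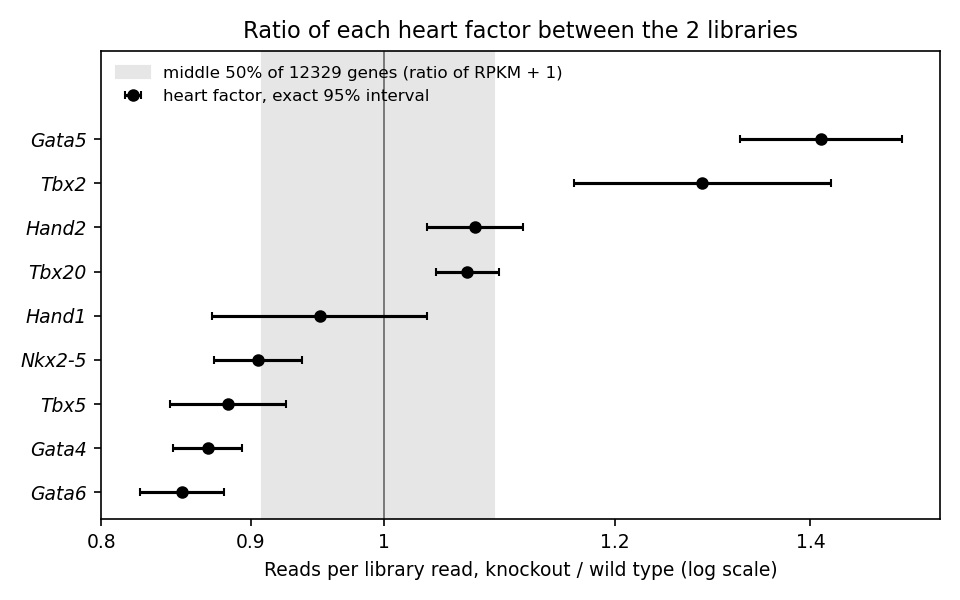
Ratio of reads per library read, knockout over wild type, for each heart factor on a log axis, with its exact 95% interval; the grey band holds the middle 50% of all 12329 genes by the ratio of RPKM + 1. Gata5 (1.41) and Tbx2 (1.29) lie to the right of the band, Gata6 (0.85), Gata4 (0.87) and Tbx5 (0.88) to its left, and Nkx2-5 (0.91) at its lower edge.

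Nkx2-5 (ENSMUSG00000015579, chromosome 17) was the most abundant of the 9 in both libraries. It had 6777 reads (109 RPKM) in WT and 6022 reads (98.3 RPKM) in KO. KO was thus lower by a small margin, 1.10-fold by read ratio (1.07 to 1.14), and 47.0% of all genes were at least as far apart by RPKM + 1. None of the other 7 NK2 and NK3 homeobox genes listed for comparison that the tables hold reached 1 RPKM. Their summed level was 0.84 RPKM in WT and 0.71 in KO, so that Nkx2-5 was the only one of these homeobox genes at 1 RPKM or more.

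Of the GATA factors, Gata4 and Gata6 were lower and Gata5 higher in the knockout heart. Gata4 (ENSMUSG00000021944, chromosome 14), a partner of Nkx2-5 in myocardium, had 11137 reads (82.7 RPKM) in WT and 9511 reads (71.9 RPKM) in KO, 1.15-fold lower (1.12 to 1.18). Gata6 (ENSMUSG00000005836, chromosome 18), which also acts in the outflow tract and vascular smooth muscle, had 7742 reads (61.2 RPKM) and 6479 reads (52.2 RPKM), 1.17-fold lower (1.13 to 1.21). Gata4 stood 1.35-fold above Gata6 in WT and 1.38-fold above it in KO, and the change of that ratio, 1.02-fold, had an interval that held 1 (0.98 to 1.07).

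Gata5 (ENSMUSG00000015627, chromosome 2), known for its part in the endocardium, had 1661 reads (12.8 RPKM) in WT and 2302 reads (18.1 RPKM) in KO. The KO level was the higher, by 1.41-fold by read ratio (1.32 to 1.505), and 5.52% of all genes were at least as far apart by RPKM + 1. Gata5 took 8.09% of the reads of the GATA trio in WT (7.72 to 8.47) and 12.6% in KO (12.1 to 13.1). Gata4 stood 6.46-fold above Gata5 in the wild-type heart and 3.98-fold above it in the knockout heart. The ratio of Gata5 to Gata4 was 1.62-fold higher in KO (1.51 to 1.74) and that of Gata5 to Gata6 1.66-fold higher (1.54 to 1.78), values that no scaling between libraries can alter.

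Markers of endocardium and of epicardium were each less far apart than Gata5, and their part in its ratio was not tested. Of the 8 endocardium and endothelium markers 5 were above 0, and their summed level was 292 RPKM in both libraries. The marker most apart, Cdh5, an endothelial cadherin and the most abundant of them, was 1.17-fold lower (1.14 to 1.21). Of the 7 epicardium markers 5 were above 0, with a summed level of 162 RPKM in WT and 184 RPKM in KO. Of these, Upk3b, the most abundant, was 1.22-fold higher (1.18 to 1.26) and Upk1b, the most apart, 1.31-fold (1.18 to 1.46), both being mesothelial surface genes. The rest of the list was named after its values were seen. Aldh1a2 and Msln were 1.17-fold and 1.26-fold higher, while Wt1, Tcf21 and Tbx18 had intervals that held 1. An antisense gene, Gata5os, shares 258 of the 3277 exon bases of Gata5 and had 30 reads in WT and 24 in KO. Whether reads were counted by strand is not given in the sources used here.

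The other GATA genes and the FOG cofactors that bind GATA factors lay on both sides of 0. None of the 5 measured passed an absolute log2 ratio of 0.32, as 13.9% of all genes did. Zfpm1 (FOG1) had 26.2 and 25.2 RPKM in WT and knockout, and Zfpm2 (FOG2), the partner of Gata4 in the heart, had 8.69 and 7.12 RPKM, 1.22-fold lower (1.14 to 1.30). Gata2, of endothelium and blood progenitors, had 6.19 and 6.61 RPKM, and Gata3 1.77 and 1.45 RPKM. Trps1, an atypical GATA repressor, had 1.89 and 2.39 RPKM, 1.27-fold higher by read ratio (1.15 to 1.40), and Gata1, of red cells, stayed below 1 RPKM at 24 and 58 reads.

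**Figure D3:**
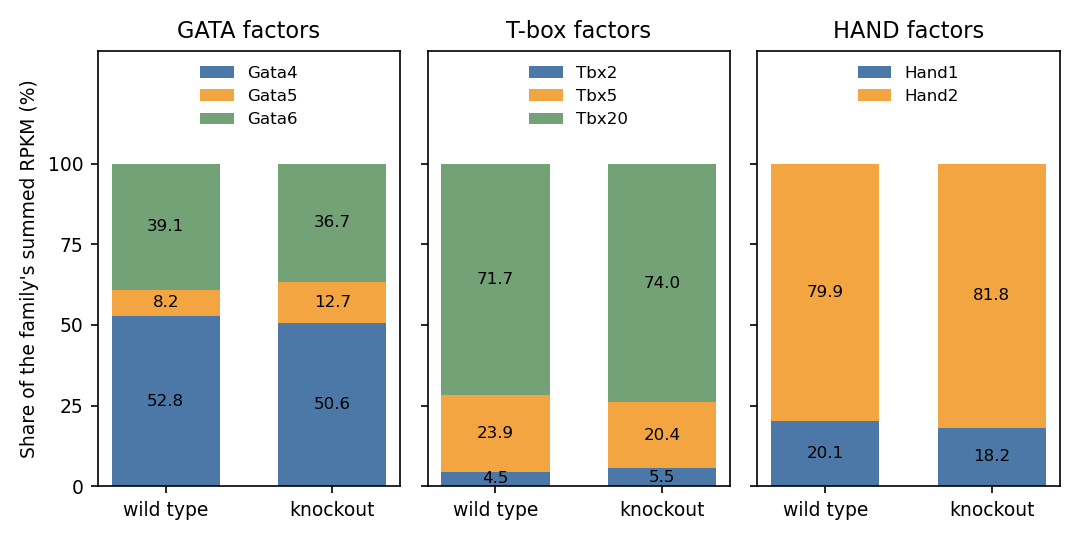
Share of the summed RPKM of the GATA, T-box and HAND factors taken by each paralog, in percent, with 1 stacked bar per library. The share of Gata5 was 8.17% in WT and 12.7% in KO, that of Tbx5 23.9% and 20.4%, and that of Hand1 20.1% and 18.2%.

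Among the T-box factors, Tbx20 was the most abundant and Tbx2 the most apart. Tbx20 (ENSMUSG00000031965, chromosome 9), which acts in myocardium and endocardium, had 12305 reads (76.8 RPKM) in WT and 12901 reads (82.1 RPKM) in KO, 1.07-fold higher (1.04 to 1.09). Tbx5 (ENSMUSG00000018263, chromosome 5), an activator in atria and left ventricle, had 3999 reads (25.6 RPKM) and 3472 reads (22.7 RPKM), 1.13-fold lower (1.08 to 1.18). The ratios of Tbx20 and Tbx5 thus lay on opposite sides of 1. Tbx20 stood 2.999-fold above Tbx5 in the wild-type heart and 3.62-fold above it in the knockout heart, a ratio 1.21-fold higher (1.15 to 1.27).

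Tbx2 (ENSMUSG00000000093, chromosome 11) was the least abundant member, with 687 reads (4.78 RPKM) in WT and 867 reads (6.15 RPKM) in KO. The KO level was 1.29-fold higher by read ratio (1.16 to 1.42), and 15.6% of all genes were at least as far apart by RPKM + 1. The RNA level of this repressor relative to Tbx5, which competes with it at shared sites, was 0.19 in WT and 0.27 in KO, 1.45-fold higher (1.30 to 1.63). This ratio is over whole hearts, and the balance of the proteins in any cell was not tested. Tbx3, the closest paralog of Tbx2, is a repressor of the atrioventricular canal and conduction system. It had 3.68 and 3.09 RPKM, the reverse direction, and was 1.19-fold lower (1.07 to 1.33). Of the 8 atrioventricular canal and outflow tract markers 6 were above 0, with summed levels of 70.0 RPKM in WT and 67.6 RPKM in KO. The most abundant of them, the growth factor gene Tgfb2, was 1.37-fold lower (1.32 to 1.43), and Sema3c, a guidance cue of the outflow tract and the most apart, was 1.51-fold higher (1.41 to 1.61). These markers went both ways, and their part in the Tbx2 ratio was not tested.

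Of the other T-box genes only Tbx18, Mga and Tbx3 reached 1 RPKM. Tbx18, of epicardium and sinus horn, had 15.6 RPKM in WT and 15.7 in KO, with an interval of the ratio that held 1 (0.96 to 1.06). Mga, which carries a T-box and a helix-loop-helix domain, had 6.81 and 8.43 RPKM, 1.24-fold higher (1.18 to 1.29). The other 9 listed T-box genes had 0 to 55 reads in either library.

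Both HAND genes were close between the libraries. Hand1 (ENSMUSG00000037335, chromosome 11) had 1133 reads (15.0 RPKM) in WT and 1057 reads (14.3 RPKM) in KO, a ratio of 0.95 with an interval of 0.87 to 1.03. Hand2 (ENSMUSG00000038193, chromosome 8) had 5302 reads (59.9 RPKM) and 5592 reads (64.3 RPKM), 1.07-fold higher (1.03 to 1.12). Hand2 stood 3.99-fold above Hand1 in WT and 4.51-fold above it in KO, and Hand1 took 17.6% of the HAND reads (16.7 to 18.6) and 15.9% (15.0 to 16.8). The antisense gene Hand2os1 shares 461 of the 2351 annotated exon bases of Hand2, and 17.4% of the 31-base words of the longest Hand2 transcript occur in other genes' transcripts. For the other 8 members this share was at most 7.08% (Gata5).

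Of the dimer partners of HAND proteins and their inhibitors, 3 were above 0 and 4 below. Id2, which encodes an inhibitor that binds E proteins and keeps them off DNA, was the most abundant of the 7 by the mean of both libraries and the most apart, with 60.9 RPKM in WT and 87.4 RPKM in KO, 1.43-fold higher (1.37 to 1.503). It alone of the 7 passed an absolute log2 ratio of 0.32, as 13.9% of all genes did. The E protein genes, named after their values were seen, were lower for Tcf3 (40.2 and 32.4 RPKM) and Tcf4 (23.3 and 21.1 RPKM), while the ratio of Tcf12 (32.3 and 32.5 RPKM) had an interval that held 1 (0.97 to 1.04). In the related Twist class, Tcf21, of epicardium and fibroblast precursors, had 35.1 and 34.8 RPKM, while Tcf15 was 1.49-fold lower (1.11 to 2.02) at 114 and 75 reads.

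**Figure D4:**
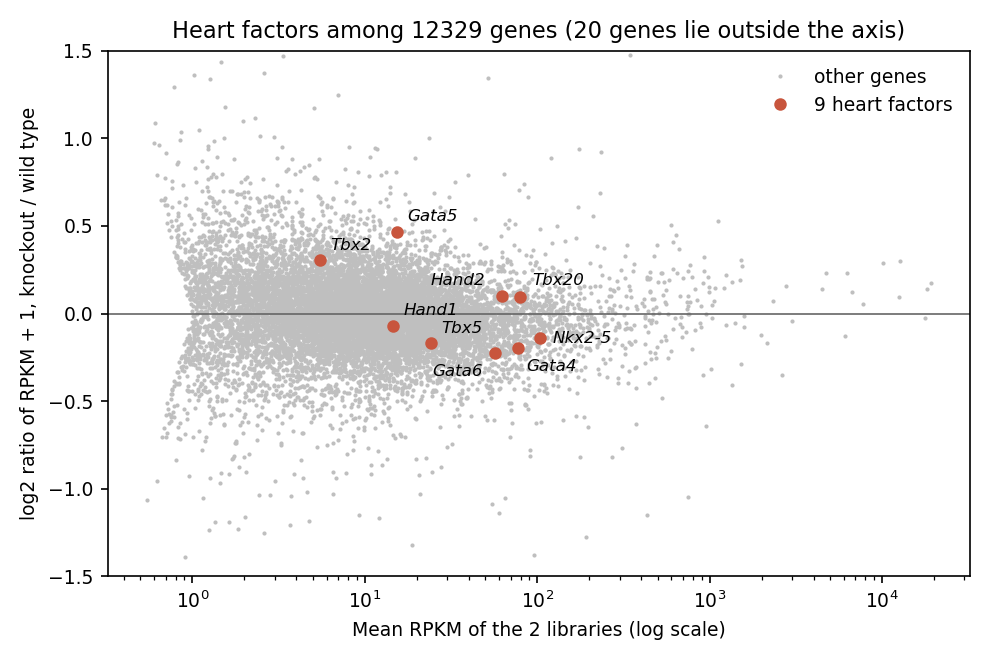
Log2 ratio of RPKM + 1, knockout over wild type, against the mean RPKM of both libraries (log axis) for 12329 genes, with the 9 heart factors in red; 20 genes lie outside the vertical axis. The heart factors lie between -0.23 (Gata6) and 0.47 (Gata5), within the cloud of other genes.

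Regulators that work with these factors lay on both sides of 0. Of 27 partner cardiac regulators measured, 17 were below 0, where 51.8% of all genes lay, and 10 above 0, the median being -0.06. An absolute log2 ratio of 0.32 was passed by 1 of the 27, and by 13.9% of all genes. That gene was Nfatc4, a calcineurin-responsive factor, with 9.13 RPKM in WT and 6.94 in KO. Smyd1, the most abundant partner and a muscle methyltransferase gene, had 107 and 112 RPKM. Of 14 genes of the BMP pathway, which induces Nkx2-5, Gata4 and Tbx2 in the embryo, 10 were above 0 and 4 below. Their median was 0.07, and 3 of them passed an absolute log2 ratio of 0.32. Bmp7, the most abundant, had 54.0 and 50.3 RPKM, and the BMP antagonist Nog, the most apart, was 1.69-fold higher (1.28 to 2.25) at 82 and 136 reads.

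Genes known as targets of the 9 factors went both ways. Of 25 measured, 11 lay above 0 and 14 below it, where 51.8% of all genes lay, and the median was -0.04. In this longer list 2 genes, Bmp10 and Nppa, passed 1.5-fold, as 2.95% of all genes did, and were farther apart than any of the 9 factors. The list was chosen with earlier results of these data known, so that share cannot show how unusual the count is. Bmp10, a growth factor of trabecular myocardium, had 24.5 RPKM in WT and 41.9 RPKM in KO, 1.71-fold higher (1.59 to 1.83). Nppa, the atrial natriuretic peptide gene that the chamber factors activate and TBX2 represses, was named after its values were seen. It had 40015 reads in WT and 25138 in KO, a ratio of 0.64 (0.63 to 0.65). The part of any of the 9 factors in these target ratios was not tested. Nppa and Srsf10 both lie on chromosome 4, and 56.8% of the words of the longest Nppa transcript occur in other genes' transcripts. The words were searched on both strands, and the antisense gene Gm13054 shares 532 of the 865 annotated exon bases of Nppa. Actc1, cardiac actin and the most abundant target, had 6350 and 5799 RPKM. Connexin 40 (Gja5), named after its values were seen as another target of TBX5, had 56.5 and 57.2 RPKM, a ratio of 1.01 (0.98 to 1.04).

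**Figure D5:**
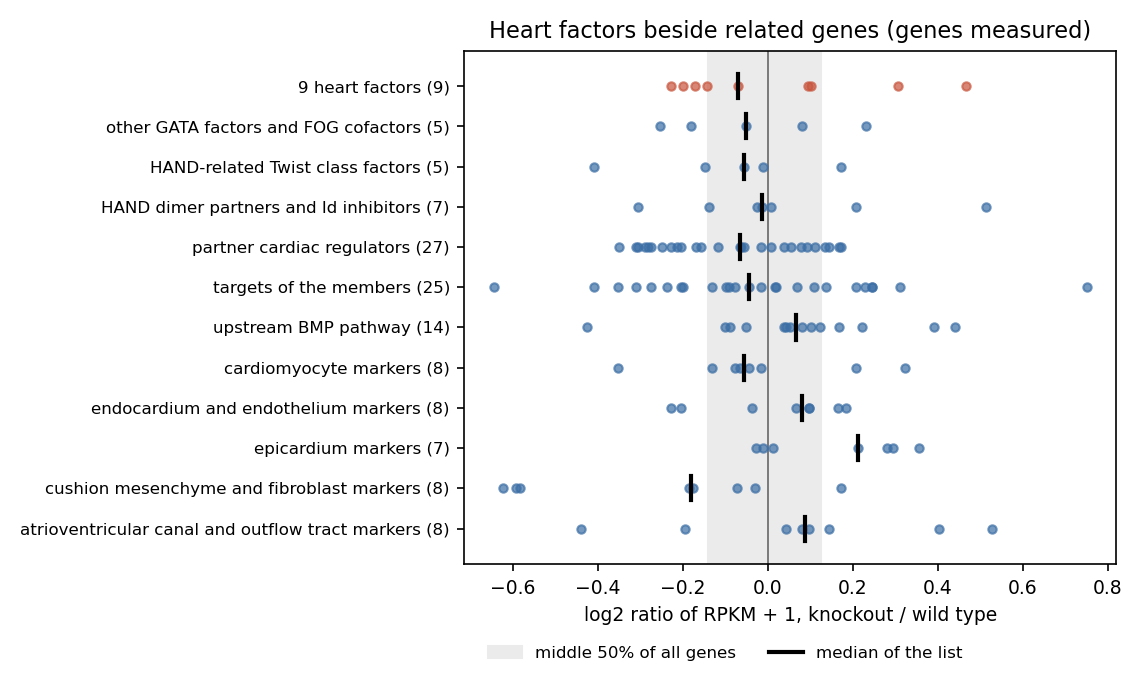
Log2 ratio of RPKM + 1, knockout over wild type, for the measured genes of the 9 heart factors (red) and of 11 lists with at least 5 measured genes (blue), 1 point per gene; black bars are list medians and the grey band is the middle 50% of all genes. The heart factors have a median of -0.07, beside -0.06 for partner regulators, 0.21 for epicardium markers and -0.18 for cushion mesenchyme and fibroblast markers.

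The promoter of Nppa is shown because it is the target on which the GATA, T-box and NK2 factors meet, and that of Gata5 because it was the member most apart, and that of Hand2 because it was the only member window with a match; 4 of the 9 members had an entry. Each sequence is the 250 bases before the gene's start from RefSeq (GRCm38), 5′ to 3′ on the gene's strand, and capitals mark matches on either strand. The motif searched for GATA factors was GATAA, the one for T-box factors AGGTGT and the one for NK2 factors TNAAGTG. No base lay in more than 1 match.

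Nppa, chr4:148000472-148000721, plus strand: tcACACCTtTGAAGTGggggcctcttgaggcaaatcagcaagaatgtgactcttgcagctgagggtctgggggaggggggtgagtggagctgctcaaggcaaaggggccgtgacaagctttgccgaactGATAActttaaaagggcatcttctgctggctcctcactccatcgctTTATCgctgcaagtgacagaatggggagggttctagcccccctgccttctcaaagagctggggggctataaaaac
Gata5, chr2:180334680-180334929, minus strand: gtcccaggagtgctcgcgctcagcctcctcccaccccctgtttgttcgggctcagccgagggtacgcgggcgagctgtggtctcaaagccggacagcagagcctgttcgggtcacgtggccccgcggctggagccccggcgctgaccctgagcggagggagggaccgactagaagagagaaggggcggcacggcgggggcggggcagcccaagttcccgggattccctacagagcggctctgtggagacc
Hand2, chr8:57320733-57320982, plus strand: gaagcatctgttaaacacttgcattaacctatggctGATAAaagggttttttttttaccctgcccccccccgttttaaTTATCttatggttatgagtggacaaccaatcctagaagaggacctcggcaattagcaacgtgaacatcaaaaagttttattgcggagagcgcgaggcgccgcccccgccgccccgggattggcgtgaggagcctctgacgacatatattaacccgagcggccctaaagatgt

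The Nppa window held matches to all 3 motifs, which 0.371% of 32851 promoter windows did. Its T-box match began 248 bases and its NK2 match 241 bases before the start, and GATA matches began at 121 and 75 bases. The Hand2 window held 2 GATA matches and no other, and the windows of Gata5, Nkx2-5 and Tbx20 held none of the 3. Among all windows 22.6% held the GATA motif, 11.8% the T-box motif and 10.1% the NK2 motif. These matches describe letters only, and binding was not measured.

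The share of each gene's length covered by reads, a deposited value, was high for all 9 factors. It ran from 89.35% to 99.95% in WT and from 93.99% to 99.80% in KO, with Tbx2 the lowest in both. Nkx2-5 had 99.81% in WT and 96.57% in KO, and Tbx2, with 89.35% and 93.99%, differed most. The median difference was 0.90 percentage points over the 9 members and 0.81 over 7792 genes with read numbers in the same range. Reads thus touched most of each factor's listed length in both libraries, but this share does not show how evenly they lay along it. Gene totals do not separate splice forms.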

How the data were processed

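RNA was extracted with Trizol and sequenced from standard Illumina libraries, per the labels' protocols, and the submitters' processing notes name Bowtie 0.12.2 and mm9. The annotation is not given in the sources used here, nor are read filters or strandedness. The deposited counts, per the file headers, are numbers of uniquely mapped reads, and sum to the total in each header. The deposited RPKM were made by the authors from count, listed length and that total, and recomputing them gave a largest relative deviation of 2.2e-14. Genes that a table does not list were set to 0 reads. The listed length differed between the libraries for 76 genes, none of them a member, and their RPKM ratios rest on unlike lengths.

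Symbols came from a table of gene names for 17196 of 17646 identifiers. Ratios were computed per library read with exact conditional binomial intervals, and log2 ratios of RPKM + 1 for genes with at least 1 RPKM in one library. Ratios of paralogs have exact conditional intervals. Levels carry Poisson intervals. A pseudocount understates the difference of low genes. Counts were not put into a model, since with 1 library per group the spread between replicates cannot be estimated. The ratio and interval calculations were tested on simulated data. The members and the 18 lists around them were chosen with earlier results of these data known. Named outside the members were the most abundant and the most apart gene of a list, by log2 ratio, paralogs with reads, and, chosen after their values were seen, markers at 0 or below 1 RPKM and genes marked so. With 2 libraries no genes of like pattern can be given. Chromosomes, exon overlaps and shared words came from GENCODE M21 (GRCm38), not mm9. Alternatives were pseudocounts of 0.1 and 5, other filters and folds, and 4 scalings, with edgeR 4.0.16 used for its TMM factors only. Python 3.11.15 and scipy 1.17.1 were used.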

Additional observations from a re-analysis of the deposited data

How the results depend on the processing

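All 9 heart factors kept their direction under the 2 other pseudocounts and 4 scalings, and the filters cannot change a factor's own ratio. On the log2 scale, 53 of these 54 values moved no farther than the distance from the middle to an end of the factor's counting interval. The exception was Gata5, whose log2 ratio was 0.37 with a pseudocount of 5 and at most 0.49. Tbx2 moved less than that distance, but its 0.19 with a pseudocount of 5 lay below its read-ratio interval. The median over the 9 ran from -0.09 to -0.05, and 4 of them were above 0 throughout. At least 1.5-fold differences were seen for 0 members under each of these. An absolute log2 ratio of 0.32 was passed by 1 (Gata5) as reported, while Tbx2, at 0.31, reached 0.36 with a pseudocount of 0.1 and 0.33 when scaled to reads outside mitochondrial and globin genes, and so passed it too. The median of all genes ran from -0.02 to 0.01 over the scalings. Without the filter on low levels, list medians changed sign for erythroid markers (-0.36 to 0.21), skeletal muscle markers (1.94 to -0.18) and other GATA and FOG genes (-0.05 to 0.01). Counts over all genes moved more: 364 passed 1.5-fold as reported, 745 with a pseudocount of 0.1, 88 with a pseudocount of 5 and 178 with at least 5 RPKM, while 1717 passed a log2 ratio of 0.32 and 67 passed 2-fold. Shares and ratios of paralogs do not depend on scaling, pseudocount or filter. Leaving out a library was not run and no paired analysis was possible because each group has 1 library. Tbx2, at 687 and 867 reads, has the widest counting interval of the 9.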
